A study of Mus musculus with 6 samples.

Results

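Fc gamma receptors are the surface proteins by which macrophages recognise the constant part of IgG antibodies, and this account follows their transcripts and those of their closest partners in macrophages with and without the mitochondrial aldehyde dehydrogenase ALDH2. The genes were taken by name: the 4 mouse Fc gamma receptor genes Fcgr1, Fcgr2b, Fcgr3 and Fcgr4, the shared signalling chain gene Fcer1g, the neonatal Fc receptor gene Fcgrt and the kinase gene Syk. All 7 were found among the 16871 genes listed in at least 1 library, and all 7 passed the filter on low counts. The RNA came from macrophages derived from bone marrow in culture (BMDM), a standard source of primary mouse macrophages. There were 3 libraries of double knockout cells lacking ALDH2 and the LDL receptor (DKO) and 3 libraries of LDL receptor knockout cells (LKO), which served as the control. Both groups thus lacked the LDL receptor, both came from C57BL/6 mice aged 8 weeks, and both received oxidised LDL (oxLDL) after 7 days of culture, a modified lipoprotein taken up by macrophages in atherosclerotic plaques. There was no group without oxLDL and none with an intact LDL receptor. The labels do not give the dose of oxLDL, the knockout alleles or the number of mice behind each group. The p-values therefore cover the spread of these libraries, which may be technical.

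Activating Fc gamma receptors, encoded by Fcgr1, Fcgr3 and Fcgr4, bind IgG outside the cell and depend on the common gamma chain, encoded by Fcer1g, whose immunoreceptor tyrosine-based activation motif (ITAM) is phosphorylated by Src-family kinases and then recruits the kinase SYK. The receptor encoded by Fcgr2b is the inhibitory member: it carries an inhibitory motif in its own tail and recruits phosphatases. The neonatal Fc receptor, encoded by Fcgrt, works inside the cell, where it binds IgG and albumin in acidic endosomes and returns them to the surface. In macrophages these proteins drive the uptake of antibody-coated particles and of immune complexes, among them complexes of antibody with oxidised lipoproteins.

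The transcripts of Fcgr2b and Fcgr3 are so alike in their coding sequence that short reads cannot always be assigned to either, and the deposited values show this. The stretch below is where the sequences are most alike, and it is shown because the results on each of these genes may depend on it. The coding sequences were taken from the GENCODE transcripts of assembly GRCm38. Both genes lie on the minus strand of chromosome 1. The stretch runs from coding base 248 to 436 in Fcgr2b and from coding base 233 to 421 in Fcgr3, counted from the A of the start codon. Capitals mark the 5 bases that differ within these 189.
Fcgr2b: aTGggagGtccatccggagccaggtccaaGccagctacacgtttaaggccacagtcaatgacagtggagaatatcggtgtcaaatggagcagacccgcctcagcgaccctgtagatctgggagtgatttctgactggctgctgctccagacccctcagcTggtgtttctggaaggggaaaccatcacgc
Fcgr3: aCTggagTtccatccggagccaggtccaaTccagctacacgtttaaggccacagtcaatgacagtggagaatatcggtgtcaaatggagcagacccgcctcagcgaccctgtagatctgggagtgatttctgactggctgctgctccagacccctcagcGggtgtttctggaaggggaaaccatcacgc

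The longest run without a difference is 129 bases. Of all windows of 50 bases in the Fcgr2b coding sequence, 20% also occur in that of Fcgr3, and 22.1% of the Fcgr3 windows occur in that of Fcgr2b. No window of this length in either is found in the coding sequence of Fcgr4 or Fcgr1. In the deposited tables, the expected counts of Fcgr2b and Fcgr3 were fractional in all 6 libraries and those of the other 5 genes were whole in all 6 (within 0.005). The sum of the Fcgr2b and Fcgr3 counts was whole in each library, at 4631, 4331 and 5318 reads in DKO and 3436, 3743 and 3288 in LKO. The fractional reads were thus divided between this pair and no other gene. How many reads were divided is not given, so the level of each gene of the pair is less certain than its counts alone would imply.

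Promoter windows are shown for the activating receptors, because Fcgr1 and Fcgr3 differed between the groups and Fcgr4 did not pass the test. Each holds 250 bases before and 50 bases after the RefSeq start of transcription in assembly GRCm38.p6, 5′ to 3′ on the strand of the gene. The files themselves use another build, so no position of theirs is printed. Capitals mark matches, on either strand, to a gamma-activated site (TTCNNNGAA, known from interferon gamma-responsive promoters), an interferon-stimulated response core (GAAA and GAAA with any 2 bases between them, known for IRF proteins) or a PU box (GAGGAA, known for the myeloid factor PU.1). No match overlaps another.
Fcgr1, chr3:96293920-96294219, minus strand: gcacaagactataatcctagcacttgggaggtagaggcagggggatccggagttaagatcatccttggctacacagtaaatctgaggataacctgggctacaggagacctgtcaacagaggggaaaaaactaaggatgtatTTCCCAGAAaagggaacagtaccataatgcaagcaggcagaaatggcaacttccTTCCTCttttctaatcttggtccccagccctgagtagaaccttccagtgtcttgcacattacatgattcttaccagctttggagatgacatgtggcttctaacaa
Fcgr3, chr1:171059354-171059653, minus strand: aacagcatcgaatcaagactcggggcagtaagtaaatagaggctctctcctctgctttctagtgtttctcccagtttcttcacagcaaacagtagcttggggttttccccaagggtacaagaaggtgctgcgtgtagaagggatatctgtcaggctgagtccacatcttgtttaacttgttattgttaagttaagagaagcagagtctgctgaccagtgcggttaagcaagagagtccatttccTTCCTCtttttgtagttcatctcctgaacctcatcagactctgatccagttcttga
Fcgr4, chr1:171018676-171018975, plus strand: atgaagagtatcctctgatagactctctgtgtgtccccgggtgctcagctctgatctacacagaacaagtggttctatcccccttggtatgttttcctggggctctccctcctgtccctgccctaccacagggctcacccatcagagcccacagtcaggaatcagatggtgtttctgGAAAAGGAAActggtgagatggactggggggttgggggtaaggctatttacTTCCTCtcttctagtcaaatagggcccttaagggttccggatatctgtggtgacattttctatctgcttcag

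The Fcgr1 window holds a gamma-activated site beginning 109 bases before the start, and a PU box. The Fcgr3 window holds a PU box, and the Fcgr4 window a PU box and an interferon response core. Of the windows not shown, a second Fcgr3 window, from another RefSeq start nearby, holds the same PU box, 1 of the 2 Syk windows holds a PU box, and those of Fcgr2b, Fcer1g and Fcgrt hold none of these motifs. Among 32851 promoter windows of mouse genes, 8.30% hold the gamma-activated site, 3.44% the interferon response core and 28.3% the PU box. A match describes the letters and does not show binding.

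The libraries held between 10760625 and 10987584 expected counts, and the first principal component, with 49.9% of the variance, separated DKO from LKO. Aldh2, on chromosome 5, averaged 7.13 ± 0.181 FPKM in DKO and 241 ± 6.83 FPKM in LKO (SD, n = 3 each; edgeR adjusted p = 4e-24), as the labels require. FPKM is the number of fragments scaled to transcript length and to library size. The macrophage markers Adgre1, Csf1r and Cd68 were between 278 and 1778 FPKM in every DKO library and between 247 and 2048 FPKM in every LKO library.

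The question for the Fc receptor genes was how their transcripts differed when ALDH2 was also missing. Fcgr3, Fcgr1 and Fcgrt were higher in DKO, with log2 fold changes of 0.59, 0.52 and 0.36. Fcgr2b, Fcgr4, Fcer1g and Syk did not pass the test. So 3 of the 7 genes passed an edgeR adjusted p of 0.05, all 3 higher, beside 14.3% of the 11809 genes tested that passed in either direction and 7.42% that passed as higher. None of the 7 passed as lower by edgeR, DESeq2 or limma, beside 6.88% of all genes that did so by edgeR. At an unadjusted p of 0.05, 1 of them, Syk, was lower by each of these tools. Between DKO and LKO, the FPKM ranges of 4 of the 7 did not overlap (Fcgr1, Fcgr3, Fcgrt and Syk), beside 29.6% of all genes tested.

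**Figure D1:**
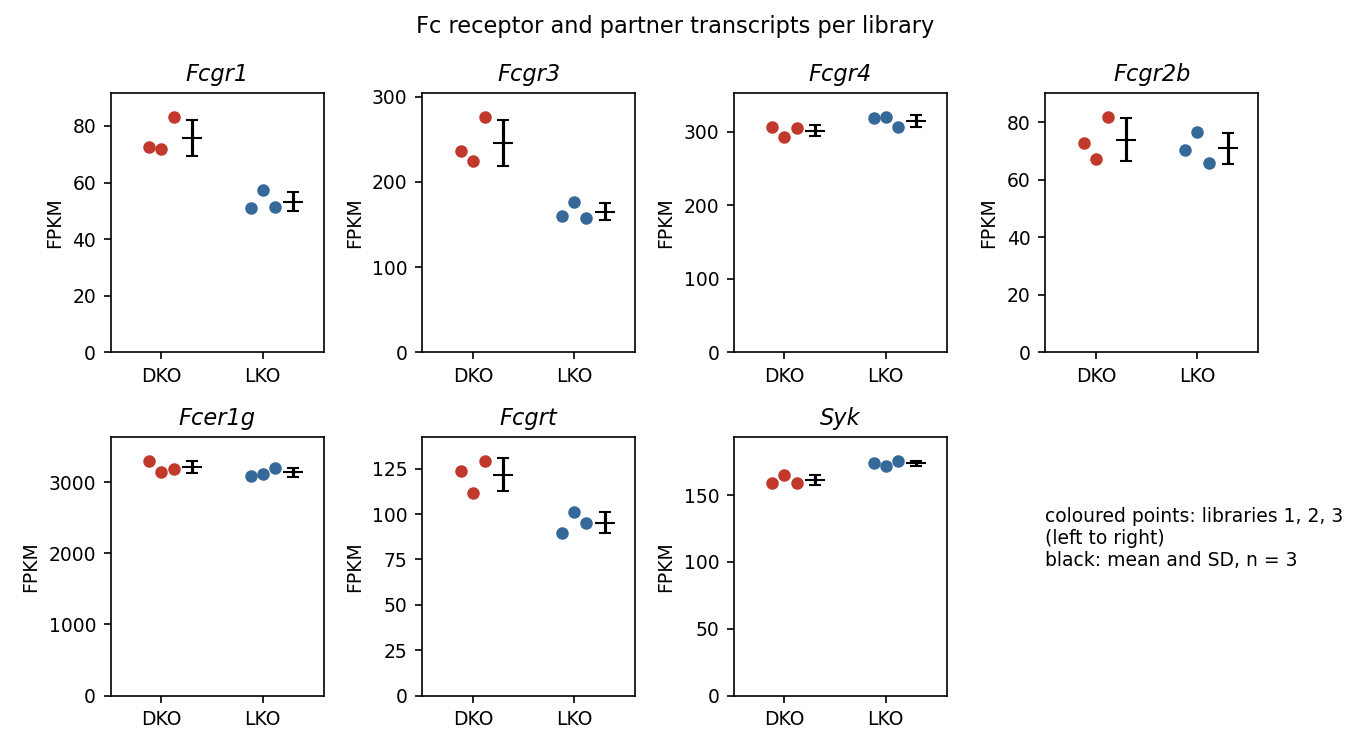
FPKM of the 7 genes in each library (coloured points, DKO left and LKO right, libraries 1 to 3 from left to right) with the mean and SD of 3 libraries in black. The y axes start at 0 and differ between panels. The DKO points lie above all LKO points for Fcgr1, Fcgr3 and Fcgrt, below them for Syk, and overlap them for Fcgr2b and Fcer1g. For Fcgr4, DKO points 2 and 3 lie below all LKO points, and DKO point 1 is level with the lowest of them.

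Among the activating receptors, Fcgr3 (NCBI gene 14131, chromosome 1), a low-affinity receptor for immune complexes, stood at 237, 224 and 276 FPKM in DKO and at 160, 176 and 158 FPKM in LKO. Every DKO library was above every LKO library, and DKO library 3 was the highest. The log2 fold change was 0.59 ± 0.06 (SE), with an edgeR adjusted p of 8.02e-07. Since reads are divided between Fcgr3 and Fcgr2b, their counts were also summed and tested as 1 gene, a test chosen after seeing the data. The sum was higher in DKO, with a log2 fold change of 0.44 ± 0.06 (SE; edgeR adjusted p = 2.51e-05). It lay between 0.35 and 0.51 when each library was left out in turn. The rise of the pair does not depend on how reads were divided. Which gene carries it may depend on that division, since the number of divided reads is not given.

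Fcgr1 (NCBI gene 14129, chromosome 3), the high-affinity IgG receptor and a textbook target of interferon gamma, stood at 72.7, 71.7 and 83.2 FPKM in DKO and at 51.1, 57.2 and 51.5 FPKM in LKO. The groups did not overlap, and DKO library 3 was again the highest. Its log2 fold change was 0.52 ± 0.06 (SE; edgeR adjusted p = 1.97e-06). All of its counts were whole numbers, so it shared no fractional reads with its relatives. Fcgr4 (NCBI gene 246256, chromosome 1), the third activating receptor, had the highest level of the 4 receptors. It was at 306, 293 and 306 FPKM in DKO and at 318, 320 and 306 FPKM in LKO. The groups overlapped only between DKO library 1 (305.88 FPKM) and LKO library 3 (305.86 FPKM), and the log2 fold change was −0.05 with a 95% interval from −0.14 to 0.04 (edgeR adjusted p = 0.499). Its upper bound lies below the lower bounds of Fcgr1 (0.40) and Fcgr3 (0.46).

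The inhibitory receptor gene Fcgr2b (NCBI gene 14130, chromosome 1) was at 72.8, 67.1 and 81.8 FPKM in DKO and at 70.3, 76.5 and 65.99 FPKM in LKO. The groups overlapped, and DKO library 3 was the highest of all. Its log2 fold change was 0.07, with a 95% interval from −0.07 to 0.21 (edgeR adjusted p = 0.581). Of the summed reads of the pair, Fcgr2b took 24.7, 24.2 and 23.9% in DKO and 31.9, 31.6 and 30.7% in LKO. The inhibitory gene thus had the smaller share of the pair in every DKO library. The transcript length deposited for Fcgr2b, which enters its FPKM, lay between 1429 and 1444 bases in DKO and between 1433 and 1440 bases in LKO, and these ranges overlap.

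Fcer1g (NCBI gene 14127, chromosome 1), the gamma chain on which the activating receptors depend, was the 9th most abundant of 16871 genes by mean FPKM. It was at 3303, 3139 and 3179 FPKM in DKO and at 3085, 3120 and 3199 FPKM in LKO. The groups overlapped, and the log2 fold change was 0.04 with a 95% interval from −0.03 to 0.12 (edgeR adjusted p = 0.501). Syk (NCBI gene 20963, chromosome 13) was at 159, 165 and 159 FPKM in DKO and at 174, 172 and 176 FPKM in LKO. All DKO values lay below all LKO values, but the difference was small, with a log2 fold change of −0.10 ± 0.04 (SE), and did not pass after adjustment (edgeR adjusted p = 0.0953, unadjusted p = 0.0175).

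Fcgrt (NCBI gene 14132, chromosome 7), the neonatal Fc receptor gene, was at 124, 112 and 130 FPKM in DKO and at 89.6, 101 and 95.3 FPKM in LKO. The groups did not overlap, and the log2 fold change was 0.36 ± 0.06 (SE; edgeR adjusted p = 0.000118). The FcRn protein is known to need beta-2-microglobulin as its light chain. That gene, B2m, averaged 5987 ± 138 FPKM in DKO and 5163 ± 64.9 FPKM in LKO (SD, n = 3 each; log2 fold change 0.22, edgeR adjusted p = 6.96e-05). The B2m call was lost after quantile normalization (limma adjusted p = 0.119) and in limma without a filter (0.209), against a lowest adjusted p of 3.71e-09 over the alternatives.

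**Figure D2:**
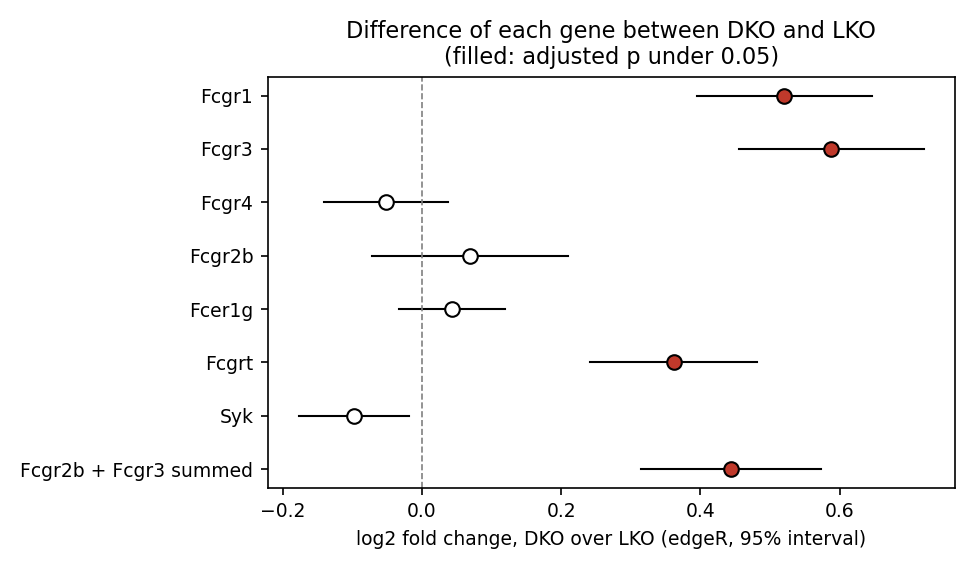
The log2 fold change of each gene, DKO over LKO, with its 95% interval from the edgeR fit over all genes (x axis). Filled points passed an adjusted p of 0.05. Fcgr1, Fcgr3, Fcgrt and the summed reads of Fcgr2b and Fcgr3 lie right of 0, while the intervals of Fcgr4, Fcgr2b and Fcer1g cross it. The interval of Syk lies left of 0, from −0.18 to −0.02, but its point is not filled.

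Within groups, 4 of the 7 genes shared part of their order. In DKO, library 3 was the highest and library 2 the lowest for each of Fcgr1, Fcgr2b, Fcgr3 and Fcgrt. In LKO, library 2 was the highest for these genes and for Fcgr4, while the lowest was library 1 for Fcgr1 and Fcgrt and library 3 for Fcgr2b and Fcgr3. Fcer1g and Syk did not follow this order. The order of the levels changed too. In DKO the order by mean FPKM was Fcer1g, Fcgr4, Fcgr3, Syk, Fcgrt, Fcgr1 and Fcgr2b, where Fcgr1 and Fcgr2b overlapped. In LKO it was Fcer1g, Fcgr4, Syk, Fcgr3, Fcgrt, Fcgr2b and Fcgr1, where Syk and Fcgr3 overlapped.

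The make-up of the receptor transcripts was therefore compared within each library, where depth cancels. The FPKM of the 4 Fc gamma receptors summed to 688, 656 and 747 in DKO and to 599, 630 and 581 in LKO. Fcgr3 made up 35.2 ± 1.56% of that sum in DKO and 27.3 ± 0.657% in LKO (SD, n = 3 each). Fcgr1 made up 10.9 ± 0.292% in DKO and 8.82 ± 0.281% in LKO. Fcgr4 made up 43.3 ± 2.10% in DKO and 52.2 ± 1.20% in LKO, although its own level did not pass the test. Fcgr2b made up 10.6 ± 0.359% in DKO and 11.7 ± 0.397% in LKO. For all 4 shares the groups did not overlap, but the shares of a library add up to the whole and cannot move independently.

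**Figure D3:**
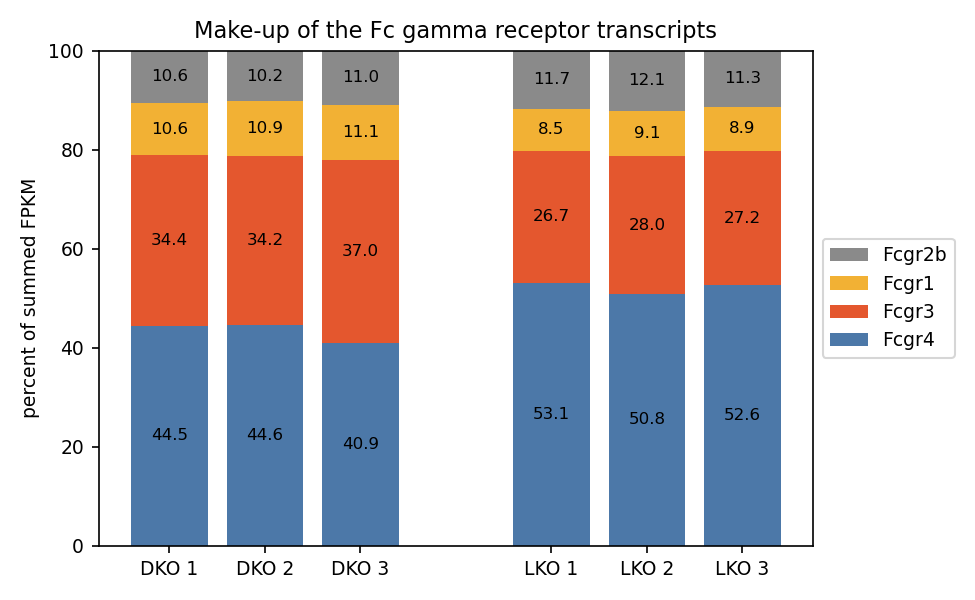
Share of each receptor gene in the summed FPKM of the 4 Fc gamma receptor genes (y axis, percent), as 1 stacked bar per library with the share printed in it. The Fcgr3 segment spans 34.2 to 37.0% in the DKO libraries and 26.7 to 28.0% in the LKO libraries.

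The ratio of activating to inhibitory transcripts, (Fcgr1 + Fcgr3 + Fcgr4) over Fcgr2b, was 8.45, 8.77 and 8.13 in DKO and 7.53, 7.24 and 7.81 in LKO. The groups did not overlap, and the mean was 1.12-fold higher in DKO. The ratio of Fcgr3 to Fcgr2b was 3.32 ± 0.0648 in DKO and 2.33 ± 0.0626 in LKO, and that of Fcgr1 to Fcgr2b was 1.03 ± 0.0364 in DKO and 0.752 ± 0.0271 in LKO (SD, n = 3 each). The ratio of Fcgr3 to Fcgr4, which does not involve Fcgr2b, was 0.815 ± 0.0775 in DKO and 0.523 ± 0.0248 in LKO. The ratio of Fcgr4 to Fcgr2b overlapped, at 4.10 ± 0.325 in DKO and 4.45 ± 0.236 in LKO (exact two-sided permutation p = 0.3). Fcer1g transcripts per activating receptor transcript were 5.16 ± 0.330 in DKO and 5.89 ± 0.289 in LKO. Of the 11 shares, ratios and sums compared, 10 gave an exact two-sided permutation p of 0.1, the smallest that 3 against 3 libraries allow, and 0.11 after Benjamini-Hochberg adjustment. All 11 are computed from the same few genes, so they depend on one another and are not separate results. Ratios with Fcgr2b or Fcgr3 rest on the authors' division of shared reads.

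Markers of macrophages and of other marrow cells moved in the same libraries. Of all genes tested, 7.42% rose and 6.88% fell by edgeR. Of 13 macrophage markers tested, 9 rose in DKO and 1, Adgre1, fell by edgeR and DESeq2 but not by limma or without DKO library 2 or 3 (edgeR adjusted p of 0.0536 and 0.0968). Their summed level was between 16042 and 17721 FPKM in DKO and between 14203 and 15034 FPKM in LKO. Lyz2 gave the largest part of this sum, averaging 7616 FPKM in DKO and 6105 FPKM in LKO. Itgam (742 FPKM in DKO, 779 in LKO) and Cd14 (267 in DKO, 287 in LKO) did not pass. Csf1r, through which macrophages receive their growth factor, averaged 484 ± 39.0 FPKM in DKO and 365 ± 21.4 FPKM in LKO (log2 fold change 0.42). Neutrophils also carry Fcgr3 and Fcgr4, and 9 of 14 of their markers fell. Their summed level was between 426 and 466 FPKM in DKO and between 639 and 696 FPKM in LKO, while Ly6g, which defines them, was between 0.410 and 0.810 FPKM in DKO and between 0.530 and 0.930 FPKM in LKO. Of 10 stromal markers tested, 8 rose, with sums between 76.4 and 105 FPKM in DKO and between 46.8 and 53.8 FPKM in LKO. The part of these cells in the Fc receptor values was not tested. In bulk RNA, fewer cells of a type and less RNA per cell cannot be told apart. Markers of T and natural killer cells summed to between 2.75 and 3.65 FPKM in DKO and between 2.04 and 3.61 FPKM in LKO. Cd3e and Ncr1 had at most 3 reads in any library, and Cd3d averaged 1.43 FPKM in DKO and 0.900 FPKM in LKO (edgeR adjusted p = 0.173). Markers of mast cells and basophils summed to between 0.260 and 0.990 FPKM in DKO and between 1.46 and 1.54 FPKM in LKO, with no Mcpt8 reads in DKO and at most 2 in an LKO library.

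Of the 7 other Fc receptor and partner genes tested, 5 fell in DKO, B2m rose and Trim21, a cytosolic antibody receptor, did not pass (20.5 FPKM in DKO, 18.8 in LKO; edgeR adjusted p = 0.186). Of all genes tested, 6.88% fell and 7.42% rose by edgeR. By DESeq2 2 genes of the list fell, and by limma 2 of the 5 it tested. Fcrl5, an Fc receptor-like gene known from B cells, averaged 81.7 ± 3.13 FPKM in DKO and 111 ± 2.04 FPKM in LKO (SD, n = 3 each; log2 fold change −0.43, edgeR adjusted p = 5.05e-07). Its relative Fcrl1 averaged 11.4 ± 0.841 FPKM in DKO and 15.4 ± 0.506 FPKM in LKO. The other 3 were low: Fcer2a, the low-affinity IgE receptor, was at 0.423 FPKM in DKO and 0.960 in LKO, Fcrla at 0.367 in DKO and 0.957 in LKO, and Fcmr, the IgM receptor, at 1.31 in DKO and 2.74 in LKO. The calls of Fcer2a, Fcrla and Fcmr were lost in DESeq2 (adjusted p of 0.0651, 0.101 and 0.0568). Their highest adjusted p was 0.0651 and 0.101 over 11 alternatives for Fcer2a and Fcrla, and 0.165 over 14 for Fcmr. The limma fits with a filter did not test Fcer2a and Fcrla. The Fcer2a call was lost without DKO library 3 (edgeR adjusted p = 0.0532), and the Fcmr call without DKO library 2 or 3 or LKO library 1 (0.108, 0.0972 and 0.0511). Without DKO library 1 the log2 fold change of Fcmr was −1.75, against −1.04 with all libraries. Of 7 B-cell markers tested, 5 fell as well, beside the same 6.88% of all genes. The summed level of the B-cell markers was between 89.4 and 99.3 FPKM in DKO and between 114 and 129 FPKM in LKO. Among them, Ms4a1 had 30, 18 and 20 reads in DKO and 63, 76 and 73 in LKO, and Cd79a had 52, 37 and 26 reads in DKO and 68, 103 and 112 in LKO. The part of B cells in these values was not tested.

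Of 31 kinases and adaptors that act next to the receptors, 2 rose, 2 fell and 27 did not pass, beside 14.3% of all genes tested that passed. By DESeq2 and by limma none rose, while 4 and 2 did at an unadjusted p of 0.05. The list's median log2 fold change was −0.02, beside 0.000184 over all genes tested. The adaptor Blnk, which links SYK to phospholipase C, and the adaptor Lat2 fell. Blnk averaged 69.2 ± 0.892 FPKM in DKO and 96.3 ± 2.70 FPKM in LKO (SD, n = 3 each; log2 fold change −0.47, edgeR adjusted p = 2.34e-07). Lat2 averaged 28.4 ± 1.15 FPKM in DKO and 38.8 ± 2.50 FPKM in LKO (log2 fold change −0.44, edgeR adjusted p = 3.73e-05). The Src-family kinase Fgr (log2 fold change 0.23) and the adaptor Shc1 (0.15) rose, but neither was called by DESeq2 or limma, and the Shc1 call was lost in all 14 alternatives (adjusted p between 0.0504 and 0.179). The Fgr call was lost in 11, among them the fits without DKO library 1, 2 or 3 or LKO library 1 or 2 (edgeR adjusted p of 0.0537, 0.145, 0.121, 0.188 and 0.0679), and its lowest adjusted p was 0.03. The Src-family kinase gene Lyn, at 287 FPKM in DKO and 282 in LKO, did not pass (edgeR adjusted p = 0.639). Tyrobp, the other ITAM chain of macrophages, was at 1081 FPKM in DKO and 1046 FPKM in LKO and did not pass (edgeR adjusted p = 0.46), except after quantile normalization (limma adjusted p = 0.0144, highest over the alternatives 0.929).

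Of 15 genes of inhibitory signalling, 4 rose, 1 fell and 10 did not pass, beside 14.3% of all genes tested that passed. By DESeq2 3 rose and 2 fell, and by limma 3 rose and 1 fell. The list's median log2 fold change was 0.01. Inpp5d, the lipid phosphatase recruited by the inhibitory receptor, was at 109 FPKM in both groups (edgeR adjusted p = 0.951). Its relative Inppl1 averaged 45.5 ± 0.440 FPKM in DKO and 37.2 ± 1.06 FPKM in LKO (log2 fold change 0.30, edgeR adjusted p = 5.24e-05). The adaptor Dok1 averaged 53.7 ± 2.76 FPKM in DKO and 41.2 ± 1.17 FPKM in LKO (log2 fold change 0.39, edgeR adjusted p = 2.7e-05). The tyrosine phosphatase Ptpn11 (log2 fold change 0.18) and the adaptor Dok2 (0.22) rose too, and the adaptor Sla, which limits receptor signalling, fell (log2 fold change −0.23). Another tyrosine phosphatase, Ptpn6, averaged 407 FPKM in DKO and 442 FPKM in LKO, with all DKO values below all LKO values. It did not pass by edgeR (log2 fold change −0.11, edgeR adjusted p = 0.0567). The Dok2 call was lost in 11 of 14 alternatives, with adjusted p between 0.0127 and 0.275, among them the fits without DKO library 1 or 2 or LKO library 1 or 2 (edgeR adjusted p of 0.154, 0.155, 0.175 and 0.0775). Without LKO library 1 its log2 fold change was 0.14. The Ptpn11 call was lost without LKO library 2 (edgeR adjusted p = 0.0656) and after quantile normalization (limma adjusted p = 0.0587), and its lowest adjusted p was 0.00448.

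Of 29 genes of the actin and membrane machinery of phagocytosis, 3 rose, 4 fell and 22 did not pass. The list's median log2 fold change was −0.02, and 14.3% of all genes tested passed. The membrane-curving protein Bin2 (91.8 FPKM in DKO, 80.6 in LKO), the Rac activator Dock1 (6.23 in DKO, 5.26 in LKO) and the phospholipase Pld2 (11.5 in DKO, 10.01 in LKO) rose. The myosin Myo1e (55.4 FPKM in DKO, 66.0 in LKO), the DOCK partner Elmo1 (62.5 in DKO, 72.4 in LKO), gelsolin, Gsn (178 in DKO, 199 in LKO), and the kinase Pak1 (65.7 in DKO, 73.2 in LKO) fell. All 7 differences were below 1.5-fold. The Dock1 and Pld2 calls were lost in DESeq2 (adjusted p of 0.0629 and 0.158), and over the alternatives their adjusted p lay between 0.00762 and 0.107 and between 0.0233 and 0.158. The Pak1 call was lost without DKO library 2 or 3 or LKO library 1 or 2 (edgeR adjusted p of 0.137, 0.0881, 0.0635 and 0.08). The Gsn call was lost without DKO library 1 (edgeR adjusted p = 0.0565) and after quantile normalization (limma adjusted p = 0.0541), and its lowest adjusted p was 0.0028. The Pld2 call was lost without DKO library 1, 2 or 3 or LKO library 1 or 2 (edgeR adjusted p of 0.0615, 0.0722, 0.0648, 0.0708 and 0.0642).

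Of 10 other myeloid receptor genes, most of them known to signal by Fcer1g, Tyrobp or SYK, 6 rose and 4 did not pass, and none fell by edgeR, DESeq2 or limma, also at an unadjusted p of 0.05. Of all genes tested, 7.42% rose by edgeR. The list's median log2 fold change was 0.21. Clec4d and Clec4n, C-type lectins that use the same gamma chain as the Fc receptors, rose. Clec4d averaged 116 ± 8.18 FPKM in DKO and 70.5 ± 5.26 FPKM in LKO (SD, n = 3 each; log2 fold change 0.72, edgeR adjusted p = 2.63e-08). Clec4n averaged 152 ± 16.5 FPKM in DKO and 98.4 ± 10.1 FPKM in LKO (log2 fold change 0.64, edgeR adjusted p = 1.75e-06). Trem2, a lipid-sensing receptor that uses Tyrobp, and Cd300lb rose as well, with log2 fold changes of 0.79 and 0.26. Treml4 passed at low levels, 2.72 FPKM in DKO and 1.80 in LKO (log2 fold change 0.61, edgeR adjusted p = 0.0415). Pirb, whose product is an inhibitory receptor, passed at 220 FPKM in DKO and 201 in LKO (log2 fold change 0.14, edgeR adjusted p = 0.025). Of the 6 calls, DESeq2 made 5 and limma 4. The Treml4 call was lost by both and in 12 of 14 alternatives (adjusted p between 0.0281 and 0.274), and its log2 fold change was 0.40 in limma. The Pirb call was lost in limma and without DKO library 2 or 3 or LKO library 3 (edgeR adjusted p of 0.0771, 0.163 and 0.0651), with a lowest adjusted p of 0.0181. The lectin gene Clec7a did not pass, at 4.02 FPKM in DKO and 3.60 FPKM in LKO (edgeR adjusted p = 0.548).

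Of 16 genes known to regulate Fc receptor transcription or to signal to it, 8 rose and 8 did not pass, beside 7.42% of all genes tested that rose. None fell by edgeR, DESeq2 or limma, also at an unadjusted p of 0.05, and limma called 6 as higher. The median log2 fold change of this list was 0.13. C5ar1, the complement C5a receptor, whose ligand is known to shift the balance of Fc receptors in mouse macrophages, averaged 69.4 ± 4.01 FPKM in DKO and 45.2 ± 1.84 FPKM in LKO (SD, n = 3 each; log2 fold change 0.62, edgeR adjusted p = 2.88e-08). Cebpb, a myeloid transcription factor, averaged 48.6 ± 3.89 FPKM in DKO and 32.2 ± 7.25 FPKM in LKO, and the interferon gamma receptor chain Ifngr1 averaged 116 ± 5.07 FPKM in DKO and 94.6 ± 3.67 FPKM in LKO. Csf1r, Cebpa, Irf8 and Il4ra rose by log2 fold changes of 0.42, 0.25, 0.17 and 0.16. The Irf8 and Il4ra calls were lost in limma and when some libraries were left out, with adjusted p up to 0.145 for Irf8 (without DKO library 3) and up to 0.118 for Il4ra (limma without a filter). Irf8 also lost its call without DKO library 1 or LKO library 1 or 3 (edgeR adjusted p of 0.0681, 0.0558 and 0.066), and Il4ra without DKO library 2 or 3 or LKO library 1 (0.072, 0.0959 and 0.0524). Spi1, which encodes PU.1, was at 556 FPKM in DKO and 551 FPKM in LKO and did not pass (edgeR adjusted p = 0.828), nor did Irf1 (35.3 FPKM in DKO, 33.0 in LKO; edgeR adjusted p = 0.22).

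**Figure D4:**
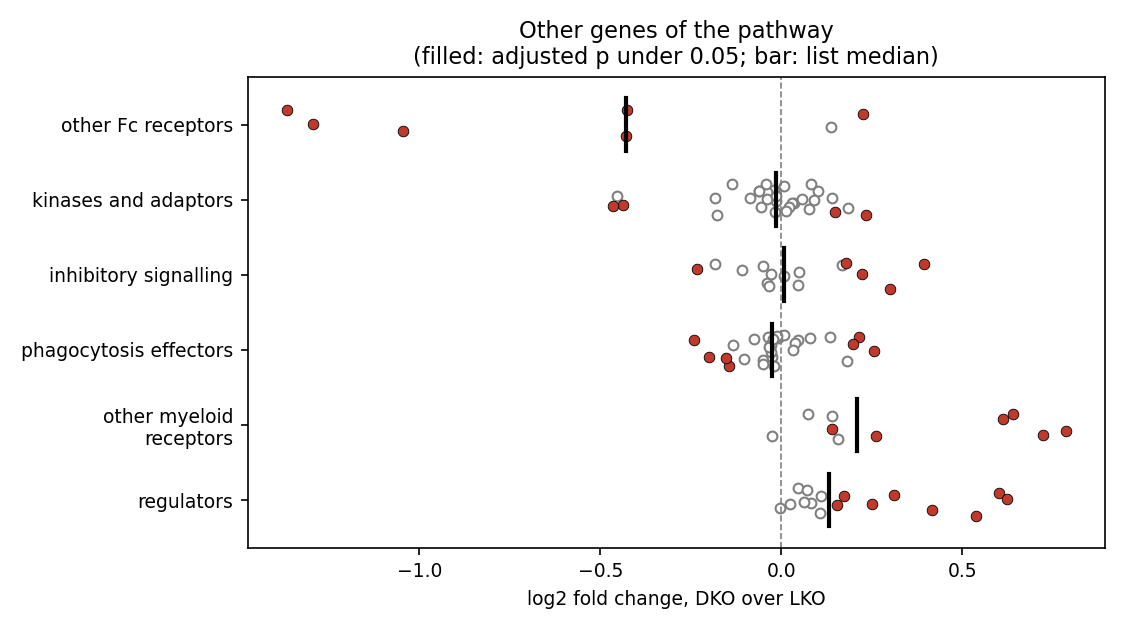
The log2 fold change, DKO over LKO (x axis), of each tested gene in 6 lists of genes around the Fc receptors. Filled points passed an edgeR adjusted p of 0.05 and black bars mark list medians. Points of the kinase, inhibitory and phagocytosis lists lie around 0, while most called points of the other myeloid receptors and regulators lie to the right and those of the other Fc receptors to the left.

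Over these 6 lists, 108 genes were tested, each counted once, of which 24 rose, 12 fell and 72 did not pass, beside 7.42% of all genes tested that rose and 6.88% that fell. Mgst1, Fcgr3, Dusp6 and Pmp22 were among the 5 genes whose pattern over the 6 libraries was most like that of Fcgr1. Likeness was the root mean square difference between log2(FPKM + 1) profiles, each centred on its own mean, among 7713 genes with a mean of at least 5 FPKM. Fcgr3 differed from Fcgr1 by 0.04 on this scale. Fcgr1, Usp18, Mrc1 and Marcksl1 were among the 5 nearest to Fcgr3, at differences between 0.04 and 0.06. These orders are descriptions over 6 libraries that fall into 2 groups.

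Fcgr2b, Fcgr4 and Fcgr3 are next to each other among the tested genes of chromosome 1, with Fcer1g 5 tested genes beyond Fcgr3. Within this cluster Fcgr3 alone passed as higher in all 15 fits run, and the other 3 passed in none of them. Of the 44 different genes that lie within 5 tested genes of a member and are no members, 10 passed, 3 of them higher, beside the 14.3% of all genes. Around the cluster, Atf6, a sensor of endoplasmic reticulum stress (log2 fold change −0.23), Fcrla (−1.37) and Pcp4l1 (−0.73) fell. The 2 genes called beside Fcgr1 were the histone gene H2ac19, which rose (log2 fold change 1.25), and Polr3gl, which fell (−0.32). Histone genes share near-identical copies, so the H2ac19 counts are uncertain, and its call was lost in 9 of 14 alternatives (adjusted p between 0.000232 and 0.424). Without DKO library 3 its log2 fold change was 0.76. Beside Fcgrt, Nosip rose (0.22) and the ribosomal protein gene Rpl13a fell (−0.17). Beside Syk, Sptlc1 rose (0.23) and Sfxn1 fell (−0.29). Without DKO library 3, 6 of the 44 were called, and the Nosip call was lost (edgeR adjusted p = 0.0688). DESeq2 called 4. Over all alternatives the highest adjusted p was 0.0871 for Pcp4l1, 0.125 for Polr3gl, 0.158 for Rpl13a, 0.183 for Sptlc1 and 0.0637 for Sfxn1, so that each of these calls was lost at least once. Atf6 lost its call in limma without a filter (adjusted p = 0.0527).

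**Figure D5:**
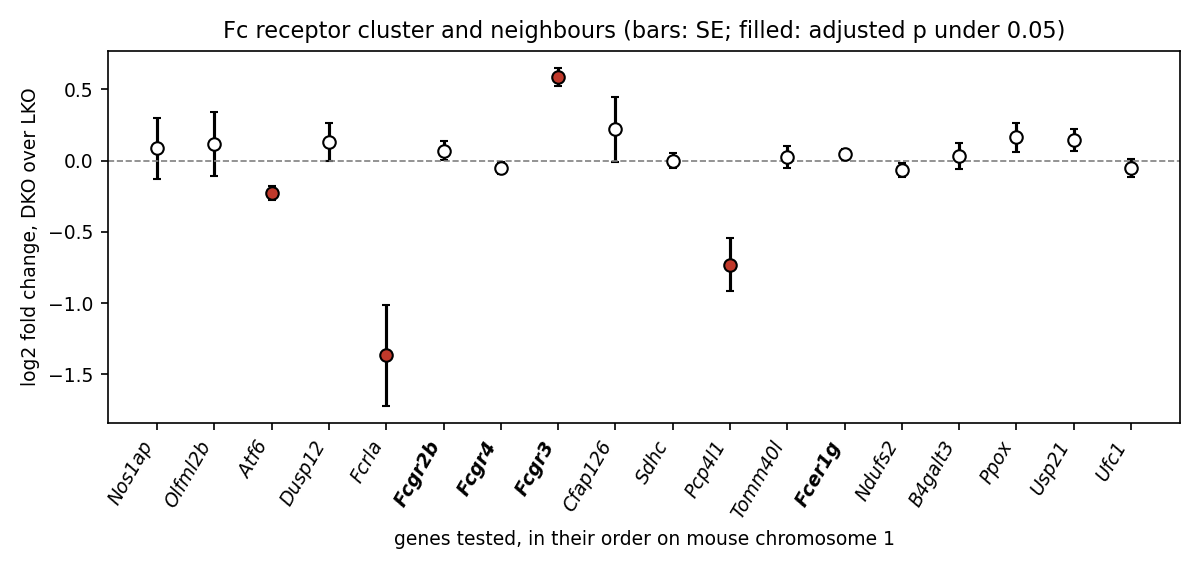
The log2 fold change, DKO over LKO (y axis, with its SE), of the tested genes around the Fc receptor cluster, in their order on mouse chromosome 1 (x axis, not to scale). The 4 member genes are in bold and filled points passed an adjusted p of 0.05. Fcgr3 lies at 0.59, its neighbour Fcgr4 at −0.05, and Atf6, Fcrla and Pcp4l1 lie below 0.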

How the data were processed

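RNA-seq tables of 6 libraries were used, grouped by their labels. Expected counts (reads per gene as estimated by the authors, not scaled to depth) and FPKM values (the authors' scaling to transcript length and depth) were taken as deposited, with units per the file headers. The submitters' processing notes name Bowtie 0.12.2 and build mm8. No label or header names the counting tool, read length or strand setting, so antisense overlaps are uncertain. The lowest FPKM in a file is 0.01, and a gene missing from a file counted as 0. Symbols came from RefSeq GRCm38, which matched 16832 of 16871 gene numbers.

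Expected counts were rounded and tested in R 4.3.3 with edgeR 4.0.16 (quasi-likelihood, filterByExpr, TMM, Benjamini-Hochberg over 11809 genes, threshold 0.05). Standard errors and 95% intervals were derived from the fold change and F statistic, and cover the spread between libraries. Alternatives were DESeq2 1.42.0, limma 3.58.1 on log2(FPKM + 1), which understates the change of low genes, other scalings, filters and pseudocounts, a replicate block, and each library left out. Ratios used exact permutation tests. Counts of libraries of 1 group differed beyond sampling noise (chi-square over degrees of freedom 1.68 to 3.71), so none was treated as a library deposited again. Whether they come from separate mice is unknown.

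The members and lists were chosen with earlier results of these data known. The genes named are the members, Aldh2, up to 4 called genes of smallest p per list, all called genes of a direction where 5 or fewer went that way, called neighbours, and the 5 most like Fcgr3 and Fcgr1. Lyn, Tyrobp, Inpp5d, Ptpn6, Spi1, Irf1, Trim21, Clec7a, Itgam, Cd14 and Batf3, which did not pass, were added after their values were seen. So were Treml4, Pirb, Cebpb, Cebpa, Irf8, Il4ra, Lyz2 and Ccr7, which passed. Some genes chosen this way are left out of the text.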

Additional observations from a re-analysis of the deposited data

How the results depend on the processing

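Fcgr1, Fcgr3 and Fcgrt kept their call and direction in all 14 alternatives, and Fcgr2b, Fcgr4, Fcer1g and Syk passed in none, so 3 members were called under each. The log2 fold change lay between 0.49 and 0.65 for Fcgr3, between 0.44 and 0.58 for Fcgr1 and between 0.31 and 0.42 for Fcgrt, with highest adjusted p of 0.0193, 0.0164 and 0.0418. Fcgr2b lay between −0.01 and 0.14 and Syk between −0.11 and −0.09 (adjusted p between 0.0664 and 0.252).

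Against 1689 genes called by edgeR, DESeq2 called 1141, edgeR without a count filter 1537, and limma on log2(FPKM + 1) 1130. Limma called 1119 with a pseudocount of 0.1, 807 without a filter and 1108 after quantile normalization. Genes called in the 6 pathway lists numbered 23 in limma without a filter and 22 after quantile normalization, against 36. Of the 44 neighbouring genes, 4 were called by DESeq2, 6 by limma with either pseudocount and 3 without a filter, against 10, and between 6 (without DKO replicate 3) and 10 with 1 library left out. The cause was not tested. Of 53 called genes followed through the alternatives, 24 kept their call throughout and 29 lost it at least once.

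The labels do not say that equal replicate numbers mark shared mice, and same-numbered libraries did not deviate together (correlations of 0.0179, −0.056 and −0.0273). With 3 libraries a group, such correlations cannot show that no pairing exists. With the replicate number as a block, 1553 genes and the same 3 members were called. Precision is limited by 3 libraries a group.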
